A study of Caenorhabditis elegans with 8 samples.

Results

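In wild-type Caenorhabditis elegans 37 genes rose and 8 fell with cadmium, led by genes of metal handling. The balance between rises and falls depended on the fit: DESeq2 called 72 higher and 143 lower, and a fit of only the 4 wild-type libraries 110 and 289. The comparison used 4 of the 8 libraries of the series: 2 from wild-type (N2) cultures with cadmium and 2 from wild-type cultures without it. They were chosen by the genotype and treatment in the sample labels, and the spread in the test was estimated from all 8 libraries. Of the 46726 genes in each library's table, 15818 had enough reads to be tested. RNA came from whole animals and ribosomal RNA was depleted. The study exposed the wild type and a loss-of-function mutant of hizr-1, which encodes a zinc-sensing nuclear receptor, to cadmium. The mutant (allele am286) is described below only where it bears on a gene that changed in the wild type.

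Both wild-type groups started as mixed-stage populations grown for 4 days from 3 L4 hermaphrodites per plate. The animals were then washed onto minimal plates of noble agar, with concentrated OP50 bacteria as food, and kept for 16 to 18 h at 20 °C. The medium of the first group held cadmium chloride at 100 mM, as the labels write the dose, and that of the second held 0 mM. The mutant groups were treated alike and grown in parallel. Each sample pooled animals from 10 plates, so embryos, larvae and adults were sequenced together. The spread behind each p-value is that between cultures grown side by side. The labels name 2 biological samples per group and give no other origin for them.

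Cadmium has no known nutritional role in C. elegans and binds thiol groups in proteins. Metallothioneins are small cysteine-rich proteins that bind zinc and cadmium. HIZR-1 activates the genes of the high zinc response in the intestine, among them metallothionein genes and genes for transporters that store or export zinc. Cytochrome P450 enzymes, glutathione S-transferases and UDP-glycosyltransferases oxidise or conjugate small molecules, and ABC transporters pump compounds out of cells.

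The total read counts were 27323411 and 21940131 in the cultures with cadmium, and 29416027 and 23143603 in those without. Over all 8 libraries they ran from 17681352 to 29586507. Ribosomal RNA genes took 1.84 to 3.93% of the reads, and all 6 pairs of wild-type libraries differed by more than sampling noise. The gene hizr-1 itself had 3.45 and 3.45 CPM in wild-type cultures with cadmium, against 2.03 and 2.47 CPM without. In the mutant it averaged 0.785 ± 0.202 CPM with cadmium and 0.543 ± 0.227 CPM without (SD, n = 2 each). CPM values are computed here with TMM-scaled library sizes. Markers of intestine, muscle, neurons, hypodermis, oocytes, embryos, moulting larvae and sperm were detected in all 4 wild-type libraries.

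With cadmium, 37 genes rose and 8 fell at an adjusted p under 0.05 in edgeR's quasi-likelihood test, which is 0.234% and 0.0506% of all tested genes (0.284% in either direction). The rises spanned log2 changes of 0.80 to 6.87 with a median of 2.05, and the falls spanned -2.78 to -0.94 with a median of -1.64. Of the genes that rose, 8 exceeded a log2 change of 4, 11 lay between 2 and 4, 13 between 1 and 2, and 5 under 1. The median change over all tested genes was -0.01. At an unadjusted p under 0.05, 746 genes were higher and 1070 lower, where 791 in all would pass by chance. The unadjusted counts of gene lists below are to be read beside these 2 numbers out of 15818. All 8 libraries shared 1 estimate of the spread, so the calls also depended on the mutant cultures. Leaving out 1 mutant culture with cadmium at a time, the median change stayed at -1.64 for the 8 and 2.05 for the 37. Steady medians do not mean steady calls: genes of both sets, the falls above all, lost their call in these fits. The number called depended on single cultures of either genotype. It was 17 higher and 0 lower without cadmium culture 1, and 23 and 2 without cadmium culture 2. Without control culture 1 it was 73 and 350, and without control culture 2 it was 31 and 3. Of the 37 genes that rose, 17, 18, 36 and 25 were among those called in these 4 fits, and of the 8 that fell 0, 0, 8 and 3.

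**Figure D1:**
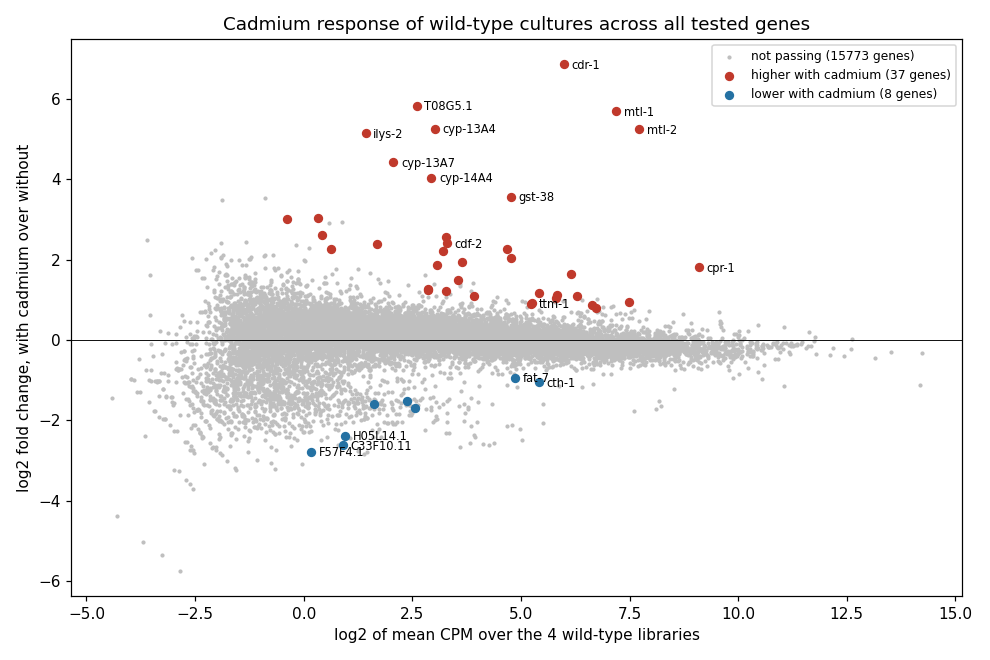
Log2 fold change with cadmium over without in wild-type cultures (y axis) against the log2 of the mean CPM over the 4 wild-type libraries (x axis), 1 point per tested gene. Genes that rose (37) are red and genes that fell (8) are blue; the rises reach 6.87 and lie across the range of levels, and a grey cloud of genes that did not pass extends below 0 at low and middle levels.

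For a typical gene, the difference between single cultures of a group was similar in size to the change between groups. A mean of 2 cultures varies less than 1 culture, so these values are not like measures. The median absolute log2 difference was 0.259 between the 2 cultures with cadmium and 0.223 between the 2 without, against a median absolute log2 change with cadmium of 0.225. For 308 genes the cultures with cadmium were more than 1 log2 unit apart, and for 482 genes the cultures without cadmium were. The genes that rose were tighter than that, with median differences of 0.180 with cadmium and 0.179 without. The test that chose them favours genes whose cultures are alike, so this is no separate support for the calls. The genes that fell were looser, with 0.457 and 0.550. Both cultures with cadmium lay above both without for 2891 genes (18.3% of those tested) and below both for 3369 (21.3%). All 37 genes that rose were in the first of these sets and all 8 that fell in the second, which the test that chose them makes likely. For 29 of the 37, every ratio of a culture with cadmium to one without exceeded 1 on the log2 scale of CPM + 0.5, and 3 of the 8 fell by over 1 in every such ratio.

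Genes of metal handling were among the largest rises. The metallothionein gene mtl-1 had 282 and 290 CPM in cultures with cadmium, against 6.20 and 4.74 CPM without. Its paralogue mtl-2 had 411 and 414 CPM with cadmium, against 8.16 and 13.6 CPM without. In both genes the cultures with cadmium were nearly equal, and the groups were far apart. The log2 change was 5.70 ± 0.188 for mtl-1 (SE, adjusted p = 9.48e-09) and 5.26 ± 0.301 for mtl-2 (adjusted p = 7.76e-05).

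The gene cdr-1, which encodes a cadmium-responsive protein related to glutathione S-transferases, had 108 and 144 CPM with cadmium, against 1.18 and 0.949 CPM without. Its log2 change of 6.87 ± 0.297 was the largest of the 45 called genes (adjusted p = 1.8e-07). The other 5 tested members of the CDR family did not pass, and cdr-3 was at 0 in all 4 libraries. cdr-2 had 42.4 and 27.9 CPM with cadmium, against 20.9 and 23 CPM without. cdr-4 had 36.6 and 30.5 CPM with cadmium, against 22.5 and 27.9 CPM without. For cdr-2 and cdr-4 the groups did not overlap, but the gap was small beside the difference between the cultures with cadmium.

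Among 18 genes for zinc transporters, cdf-2 and ttm-1 rose and none fell, and the median of the family was 0.02. CDF-2 stores zinc in lysosome-related gut granules, and TTM-1 moves zinc out of intestinal cells. The gene cdf-2 had 15.3 and 17.9 CPM with cadmium, against 2.96 and 3.27 CPM without, a log2 change of 2.41 ± 0.224 (adjusted p = 0.000195). The gene ttm-1 had 44.3 and 54 CPM with cadmium, against 26.2 and 26 CPM without, a log2 change of 0.91 ± 0.163 (adjusted p = 0.0433). The ZIP family gene zipt-2.3 had the next smallest p of the family. It had 3.93 and 4.70 CPM with cadmium, against 1.82 and 3.13 CPM without, and did not pass (adjusted p = 0.356). Of 6 metal-response genes 5 rose, namely both metallothionein genes, both zinc transporter genes above and cdr-1. The remaining one, hizr-1, changed by 0.62 ± 0.31 (adjusted p = 0.472).

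**Figure D2:**
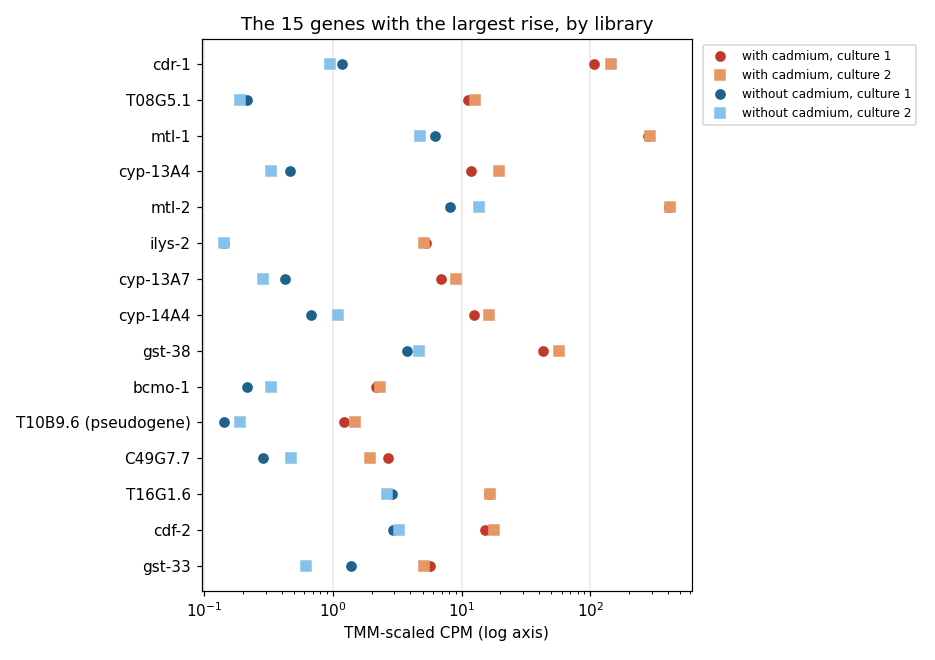
TMM-scaled CPM (x axis, log scale) of the 15 genes with the largest rise in each of the 4 wild-type libraries; circles are culture 1 and squares culture 2, red and orange with cadmium, dark and light blue without. In every row both red and orange symbols lie right of both blue symbols, from 0.142 CPM for ilys-2 without cadmium to 414 CPM for mtl-2 with cadmium.

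Several genes for cytochrome P450 enzymes rose from very low levels. cyp-13A4 had 11.8 and 19.7 CPM with cadmium, against 0.463 and 0.332 CPM without, a log2 change of 5.26 ± 0.361 (adjusted p = 2.11e-05). cyp-13A7 had 6.97 and 9.0 CPM with cadmium, against 0.428 and 0.285 CPM without (4.44 ± 0.401, adjusted p = 0.000166). cyp-14A4 had 12.5 and 16.4 CPM with cadmium, against 0.677 and 1.09 CPM without (4.05 ± 0.305, adjusted p = 4.66e-05). The groups of these 3 genes were at least 3.01 log2 units apart in every pair of cultures, on the scale of CPM + 0.5. In cyp-33C7 the levels were 13.6 and 17 CPM with cadmium, against 3.64 and 2.89 CPM without. Its log2 change was 2.22 ± 0.239. In cyp-13A5 they were 21 and 18.7 CPM with cadmium, against 5.35 and 4.98 CPM without (1.94 ± 0.311, adjusted p = 0.0286). Of 64 tested P450 genes 5 rose and 0 fell. The median over the family was 0.42, and 31 (48.4%) had both cultures with cadmium above both without, against 18.3% of all tested genes.

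The cyp-13A genes that rose are neighbours on chromosome II, by the coordinates of the files (build WBcel235). The pseudogene WBGene00014838 (9793754 to 9795541, - strand), cyp-13A4 (9795848 to 9797740, - strand) and cyp-13A5 (9798276 to 9800363, - strand) follow each other with gaps of 306 and 535 bp. cyp-13A7 (9803620 to 9805510, + strand) lies 3256 bp beyond cyp-13A5. Between them lies cyp-13A6 (9800761 to 9802721, - strand), named here after its values were seen. It had 1.5 and 1.75 CPM with cadmium, against 0.392 and 0.427 CPM without (1.98 ± 0.410), and missed the threshold (adjusted p = 0.0955). The pseudogene, whose product is not a protein, had 1.23 and 1.48 CPM with cadmium, against 0.143 and 0.190 CPM without (3.00 ± 0.491, adjusted p = 0.0285). How reads matching several of these related genes were counted is not given in the sources used here, so reads of 1 may have been assigned to another.

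Among the conjugating enzymes, the glutathione S-transferase gene gst-38 had 42.8 and 57.1 CPM with cadmium, against 3.74 and 4.70 CPM without (3.57 ± 0.276, adjusted p = 6.73e-05). gst-33 had 5.67 and 5.15 CPM with cadmium, against 1.39 and 0.617 CPM without (2.39 ± 0.368, adjusted p = 0.0176). These were the 2 of 41 tested glutathione S-transferase genes that rose, and 0 fell. Another member, gst-5, had 35 and 31.9 CPM with cadmium, against 15.8 and 18.0 CPM without, and missed the threshold (0.99 ± 0.198, adjusted p = 0.0778). Both cultures with cadmium lay above both without for 26 of the 41 (63.4%), against 18.3% of all tested genes, and the family median was 0.40. Of 62 genes for UDP-glycosyltransferases 2 rose, ugt-1 (1.49 ± 0.202) together with ugt-16 (1.23 ± 0.205), and 0 fell. Without overlap, 27 (43.5%) lay above and 5 (8.06%) below, against 18.3% and 21.3% of all tested genes. The family's median was 0.14. Of 36 short-chain dehydrogenase and flavin monooxygenase genes 0 passed in edgeR's test, while 3 were higher and 1 lower at an unadjusted p under 0.05. Their median was 0.22, and dhs-20, with the smallest p, had 15.3 and 9.85 CPM with cadmium, against 8.73 and 6.55 CPM without.

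The ABC transporter genes that rose were pgp-9 and pgp-1, which encode P-glycoproteins. pgp-9 had 77.1 and 78.9 CPM with cadmium, against 39.0 and 32.3 CPM without (1.13 ± 0.174). pgp-1 had 81.5 and 69.4 CPM with cadmium, against 39.6 and 32.9 CPM without (1.06 ± 0.176). Of 47 tested members of this family 2 rose and 0 fell, with 20 above 0 and 27 below, and the median was -0.03. Without overlap, 6 (12.8%) lay above and 12 (25.5%) below, against 18.3% and 21.3% of all tested genes. None of 10 genes for glutathione and phytochelatin synthesis passed in edgeR's test, and 0 had an unadjusted p under 0.05. Their median was -0.01.

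Both carotenoid oxygenase genes rose. bcmo-1 had 2.15 and 2.33 CPM with cadmium, against 0.214 and 0.332 CPM without (3.04 ± 0.405, adjusted p = 0.00509). bcmo-2 had 42.4 and 42.8 CPM with cadmium, against 9.37 and 8.39 CPM without (2.26 ± 0.185, adjusted p = 6.73e-05). The 2 cultures of a group agreed closely in bcmo-2 and were below 1 CPM without cadmium in bcmo-1.

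The lists of lysozymes, infection response genes and proteases each held 1 or 2 genes that rose. The invertebrate-type lysozyme gene ilys-2 had 155 and 115 reads with cadmium, against 4 and 3 reads without (5.15 ± 0.562, adjusted p = 0.000858). The levels were 5.29 and 5.15 CPM with cadmium, against 0.143 and 0.142 CPM without. Its neighbour in the family, ilys-3, had 14 and 12 reads with cadmium, against 2 and 0 without, and did not pass (adjusted p = 0.205). The abundant lysozyme gene lys-7 had 179 and 109 CPM with cadmium, against 86.6 and 55.1 CPM without, and did not pass either (adjusted p = 0.322). Of 11 lysozyme genes tested, 1 rose, 0 fell and 7 (63.6%) lay above without overlap, against 18.3% of all tested genes.

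Among 20 infection response and thaumatin genes, 2 rose and 0 fell, with a median of 0.48. Of these 20, 10 (50%) lay above without overlap, against 18.3% of all tested genes. irg-4, induced by bacterial pathogens, had 118 and 98.2 CPM with cadmium, against 33.1 and 35.5 CPM without (1.66 ± 0.163, adjusted p = 0.000346). The thaumatin gene thn-2 had 41.8 and 45.5 CPM with cadmium, against 9.87 and 11.2 CPM without (2.05 ± 0.258, adjusted p = 0.00403). Antimicrobial peptide genes (37 tested, median 0.11) and C-type lectin genes (117 tested, median 0.15) held 0 that passed in edgeR's test. At an unadjusted p under 0.05, 7 of the peptide genes were higher and 0 lower, and 15 of the lectin genes were higher and 7 lower. Of all 15818 tested genes, 746 were higher and 1070 lower by that measure.

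The protease gene cpr-1, a cathepsin B-like gene of the intestine, had 910 and 796 CPM with cadmium, against 282 and 201 CPM without (1.82 ± 0.192, adjusted p = 0.000614). It was the 1 of 7 tested cpr genes that rose, and all 7 had a change above 0, as did 7696 of all 15818 tested genes. The aspartyl protease gene asp-17 had 10.3 and 10.0 CPM with cadmium, against 3.89 and 4.74 CPM without (1.24 ± 0.227, adjusted p = 0.0468). It was the 1 of 11 asp genes that rose, with 7 (63.6%) above without overlap, against 18.3% of all tested genes. The list of 20 intestinal markers held 2 that rose, mtl-2 and cpr-1, and its median was 0.14. The summed level of these 20 was 11263 and 9453 CPM with cadmium, against 8972 and 8600 CPM without. That sum includes mtl-2 and cpr-1, so it does not show a rise of the other markers. Of the 20, 14 had a change above 0 and 6 below. Without overlap, 8 (40%) lay above and 0 below, against 18.3% and 21.3% of all tested genes. The part of the level of intestinal RNA in the rise of the intestinal genes was not tested. In whole-animal RNA, fewer cells of a type and less RNA per cell cannot be told apart.

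Genes without an assigned symbol made up much of the remainder, and 14 of the 37 that rose were in none of the 37 gene lists used. T08G5.1 had 11.2 and 12.7 CPM with cadmium, against 0.214 and 0.190 CPM without (5.84 ± 0.463, adjusted p = 6.73e-05). T16G1.6 had 16.3 and 16.5 CPM with cadmium, against 2.89 and 2.66 CPM without (2.56 ± 0.259, adjusted p = 0.000429). C49G7.7 had 2.66 and 1.93 CPM with cadmium, against 0.285 and 0.474 CPM without (2.62 ± 0.432, adjusted p = 0.0286). The log2 change of T08G5.1 was close to those of the metallothionein genes, on 327 and 284 reads with cadmium, against 6 and 4 without.

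The smaller unnamed rises were F15B9.6 (2.28 ± 0.382), C08E8.4 (1.86 ± 0.278), C29F7.1 (1.26 ± 0.229), C29F7.2 (1.17 ± 0.153) and C29F3.7 (1.10 ± 0.132). T01D3.6 (0.95 ± 0.162), F40F8.5 (0.88 ± 0.129) and W01A11.1 (0.80 ± 0.136) rose least. The 37 are completed by a pair of enzyme genes: plpp-1.2, a phospholipid phosphatase gene (1.10 ± 0.199), and cest-33, a carboxylesterase gene (0.93 ± 0.159). W01A11.1 and plpp-1.2 overlap exons of genes on the other strand, moc-2 and snr-3. The strand setting of the counting is not given in the sources used here, so reads of these pairs cannot be told apart. The cultures of C08E8.4 with cadmium, at 16.6 and 9.94 CPM, were the least alike of the unnamed genes listed, yet both exceeded the 3.99 and 3.27 CPM without cadmium.

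Per kilobase of exon, mtl-2 was the most abundant of the genes that rose, at 1310 CPM per kilobase with cadmium against 34.5 without. cpr-1 (764 with cadmium, 216 without) and mtl-1 (763 with cadmium, 14.6 without) followed, with close means and culture values of 815 and 713 for cpr-1 and 753 and 773 for mtl-1 with cadmium. cdr-1 was the next at 141 with cadmium and 1.19 without. The lowest of the 37 was the pseudogene WBGene00014838, at 0.951 with cadmium and 0.117 without. Summed over the 37 genes, the level was 3108 and 3016 CPM with cadmium, against 903 and 775 CPM without. 9 of the 37 averaged under 1 CPM without cadmium.

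Chromosome V held 20 of the 37 (54.1%) and 19.7% of all tested genes, chromosome II held 8, chromosomes IV and X 4 each, chromosome III 1 and chromosome I 0. Besides the cyp-13A group, 3 pairs lay within 20000 bp of each other with no other tested gene between them. mtl-2 (V:14018272-14018643, - strand) and T08G5.1 (V:14018766-14020332, + strand) point away from each other with a gap of 122 bp. gst-38 (V:15915168-15916079, - strand) and cdr-1 (V:15921361-15922820, + strand) do so with a gap of 5281 bp. C29F7.1 and C29F7.2 follow each other on the + strand of chromosome X with a gap of 1464 bp.

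The 8 genes that fell had a smaller median change than those that rose. The desaturase gene fat-7, which makes oleic acid from stearic acid, had 19.8 and 20.2 CPM with cadmium, against 36.1 and 40.8 CPM without (-0.94 ± 0.168, adjusted p = 0.0433). cth-1, a cystathionine gamma-lyase gene of cysteine metabolism, had 28.8 and 26.9 CPM with cadmium, against 50.7 and 64.8 CPM without (-1.05 ± 0.175, adjusted p = 0.0286). In both genes the cultures with cadmium nearly coincided. Each was the 1 member of its list to pass: fat-7 among 64 genes of fat metabolism (median 0.03) and cth-1 among 16 of cysteine and hydrogen sulfide metabolism (median 0.10).

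catp-4, a P-type ATPase gene, had 2.05 and 3.54 CPM with cadmium, against 6.77 and 11.1 CPM without (-1.69 ± 0.299, adjusted p = 0.0433). It was the 1 of 21 P-type ATPase genes that fell, and the family median was -0.11. Y51H7C.1 had 2.25 and 3.09 CPM with cadmium, against 7.06 and 8.30 CPM without (-1.53 ± 0.247, adjusted p = 0.0264). K09F6.3 had 1.26 and 1.79 CPM with cadmium, against 3.78 and 5.45 CPM without (-1.60 ± 0.279, adjusted p = 0.0375). In these 3 genes the second culture of each group was the higher, and the groups did not overlap.

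The lowest of those that fell were F57F4.1, C33F10.11 and H05L14.1. F57F4.1 had 4 and 10 reads with cadmium, against 40 and 52 without (-2.78 ± 0.50). C33F10.11 had 10 and 16 reads with cadmium, against 60 and 90 without (-2.62 ± 0.451). H05L14.1 had 12 and 19 reads with cadmium, against 59 and 93 without (-2.38 ± 0.420, adjusted p = 0.0433 for each of the 3). These are the largest falls of the 8, and they rest on the fewest reads.

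**Figure D3:**
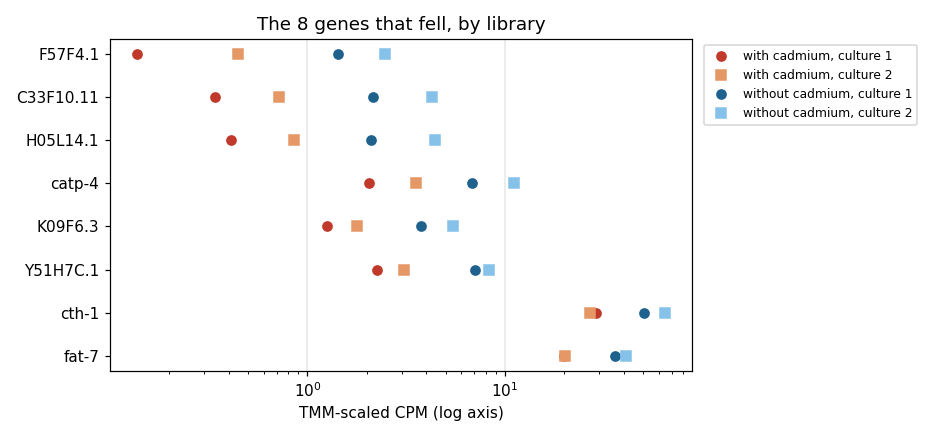
TMM-scaled CPM (x axis, log scale) of the 8 genes that fell in each of the 4 wild-type libraries; circles are culture 1 and squares culture 2, red and orange with cadmium, dark and light blue without. In 7 of the 8 rows the order from left to right is cadmium culture 1, cadmium culture 2, control culture 1, control culture 2; cth-1 has the cadmium cultures the other way round.

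Levels of sperm markers are given beside the genes that fell. Of 94 tested sperm markers 0 passed in edgeR's test, but 35 were lower and 0 higher at an unadjusted p under 0.05. Their median change was -1.58, and 53 (56.4%) lay below without overlap, against 21.3% of all tested genes. The median log2 CPM of the list was 0.32 and 1.08 with cadmium, against 1.28 and 2.42 without, so the 4 libraries stood in the order seen in 7 of the 8 genes that fell. That order held for 8.02% of all tested genes. The summed level of the list was 289 and 376 CPM with cadmium, against 394 and 749 CPM without, and 6 entries of the list were at 0 in all 4 libraries (msp-32, msp-58, msp-79, nspc-15 and 2 copies of nspc-2). With the list's median as a covariate, 0 of the 8 genes that fell and 20 of the 37 that rose passed. The median log2 change in that fit was -1.23 for the 8 and 1.68 for the 37, against -1.64 and 2.05 without the covariate. The covariate was itself lower in both wild-type cultures with cadmium than in both without, so that fit cannot tell sperm level and cadmium apart. The part of sperm in the falls was not tested.

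Of the named sperm genes, spe-18, a gene needed for spermatogenesis, had 1.57 and 3.05 CPM with cadmium, against 5.38 and 11.3 CPM without (-1.87 ± 0.406, adjusted p = 0.18). ssq-3 had 0.854 and 2.42 CPM with cadmium, against 5.06 and 8.11 CPM without (adjusted p = 0.218). In both genes control culture 2 was the highest library and cadmium culture 1 the lowest.

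Vitellogenin genes and markers of oocytes held 0 that passed. All 6 vitellogenin genes, which encode yolk proteins made in the intestine, lay below without overlap, against 21.3% of all tested genes. Their median was -0.42, and 0 passed in edgeR's test. At an unadjusted p under 0.05, 2 of the 6 were lower. vit-1 had 1277 and 1392 CPM with cadmium, against 3074 and 2811 CPM without (-1.14 ± 0.314, adjusted p = 0.299). Of 26 markers of oocytes and early embryos 19 (73.1%) lay below without overlap, against 21.3% of all tested genes, with a median of -0.23 and 0 that passed, while 3 were lower at an unadjusted p under 0.05. Among them gld-1, a regulator of translation in the germline, had 296 and 346 CPM with cadmium, against 482 and 496 CPM without (-0.61 ± 0.167, adjusted p = 0.266).

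**Figure D4:**
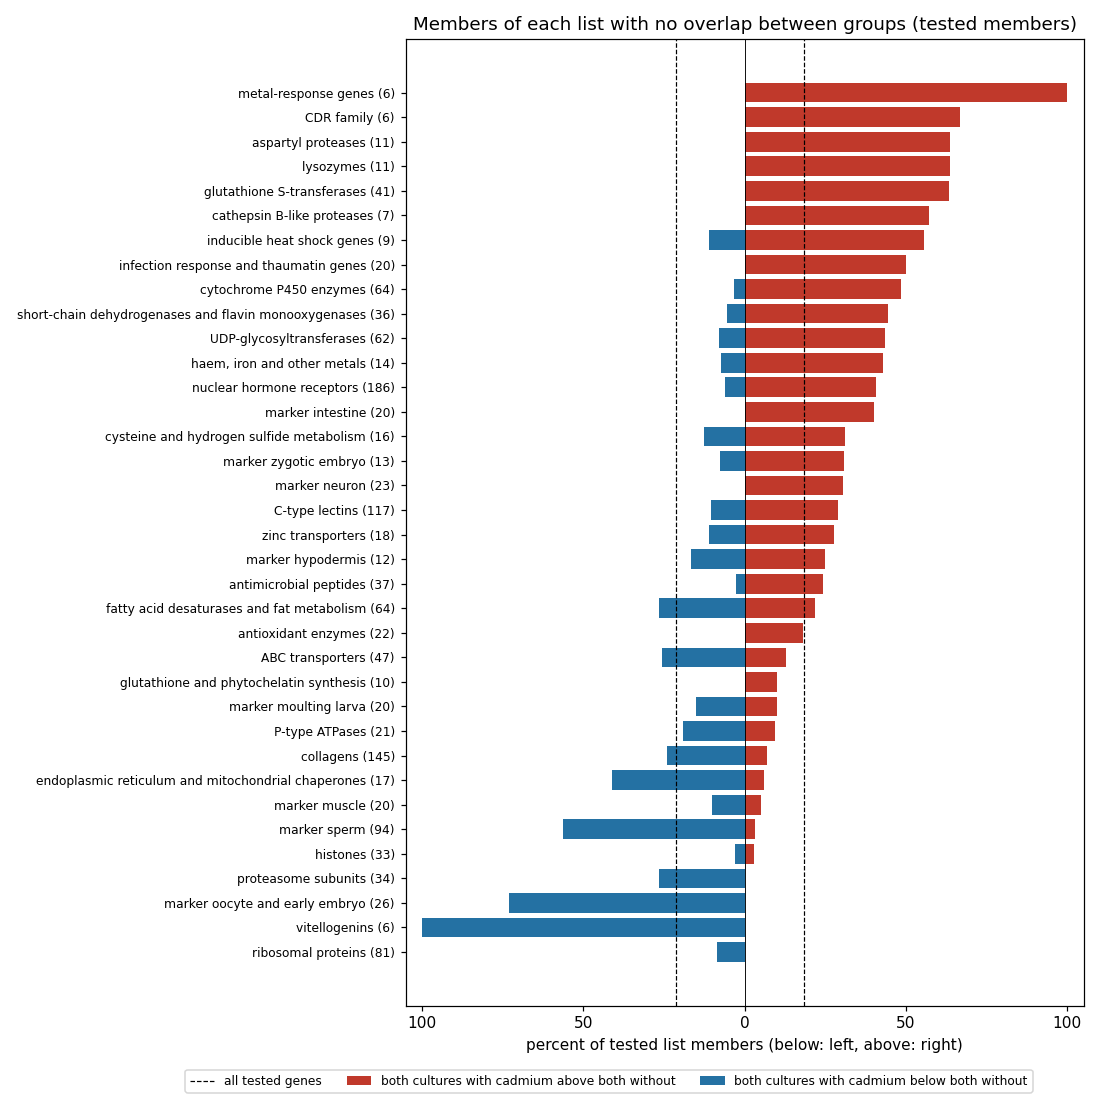
Percent of the tested members of each gene list with at least 5 of them (number tested in parentheses) whose 2 cultures with cadmium both lay above both cultures without (red, to the right) or below both (blue, to the left); dashed lines mark the same shares of all tested genes, 18.3% above and 21.3% below. Metal-response genes reach 100% above and vitellogenins 100% below; glutathione S-transferases are at 63.4% above and sperm markers at 56.4% below.

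Stress genes that cadmium is often reported to induce did not pass in the main edgeR fit, which does not show them to be unchanged. Of the 18 alternatives described below, hsp-16.2 and hsp-16.41 each passed in 4 and hsp-70 in 2, while hsp-4, hsp-6 and ctl-2 passed in 0. Of 13 inducible heat shock genes 9 were tested, and the other 4, copies of hsp-16.1 and hsp-16.48, were listed at 0 in the wild type. hsp-16.2 had 57.1 and 32.2 CPM with cadmium, against 26.4 and 19.9 CPM without (0.95 ± 0.265, adjusted p = 0.299). hsp-16.41 had 56.6 and 29.8 CPM with cadmium, against 25.3 and 18.4 CPM without (0.98 ± 0.282, adjusted p = 0.305). hsp-70 had 78.1 and 51.8 CPM with cadmium, against 44.3 and 42.3 CPM without (0.59 ± 0.184, adjusted p = 0.311). In all 3 the first culture with cadmium stood well above the second, and the second stood only a little above the controls. Over the 9 tested the median was 0.59, with 4 higher and 0 lower at an unadjusted p under 0.05. Without overlap, 5 (55.6%) lay above and 1 (11.1%) below, against 18.3% and 21.3% of all tested genes.

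Chaperones of the endoplasmic reticulum and mitochondria (17 tested, median -0.06) held 0 that passed in edgeR's test and 0 at an unadjusted p under 0.05. hsp-4, the marker of unfolded proteins in the endoplasmic reticulum, had 462 and 538 CPM with cadmium, against 558 and 577 CPM without. hsp-6, the mitochondrial counterpart, had 690 and 710 CPM with cadmium, against 817 and 779 CPM without. Antioxidant enzymes (22 tested, median 0.08) held 0 that passed and 1 higher at an unadjusted p under 0.05. The catalase gene ctl-2 had 74.5 and 60.5 CPM with cadmium, against 57.9 and 48.0 CPM without. Genes of haem, iron and other metals (14 tested, median 0.17) held 0 that passed, with 1 higher and 1 lower unadjusted. Of these the ferroportin-like gene fpn-1.1 had 6.32 and 6.45 CPM with cadmium, against 9.80 and 9.72 CPM without (-0.61 ± 0.261, adjusted p = 0.404). Proteasome subunits with their regulator skn-1 (34 tested) had 33 of 34 below 0, where 8122 of all 15818 tested genes were. Their median was -0.10, with 0 at an unadjusted p under 0.05.

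Several large families held 0 genes that passed in edgeR's test, and their members are given beside the 18.3% above and 21.3% below of all tested genes. Unadjusted counts stand beside 746 higher and 1070 lower of all 15818 tested genes. Nuclear hormone receptor genes (186 tested) had a median of 0.22, with 149 above 0 and 76 (40.9%) above without overlap, and 8 higher and 1 lower at an unadjusted p under 0.05. Ribosomal protein genes (81 tested) had a median of -0.27, with 80 below 0 and 7 (8.64%) below without overlap, and 0 higher and 1 lower unadjusted. Their summed level was 81077 and 90515 CPM with cadmium, against 77826 and 122438 CPM without. Both cultures with cadmium thus lay above control culture 1, and the negative median came with a high control culture 2. Histone genes (33 tested) had a median of -0.27 and 1 (3.03%) below without overlap, and 0 higher and 1 lower unadjusted. Their summed level showed the same pattern, at 2560 and 2979 CPM with cadmium, against 2221 and 4971 CPM without. Collagen genes (145 tested) had a median of 0.05, with 10 (6.90%) above and 35 (24.1%) below without overlap, and 8 higher and 31 lower unadjusted. Their summed level was 19989 and 21655 CPM with cadmium, against 21309 and 32795 CPM without, so control culture 2 stood apart here too. Neuronal markers (23 tested) were above 0 in 22, with a median of 0.36, and 4 higher and 0 lower unadjusted. Markers of muscle (20 tested, median 0.04), hypodermis (12 tested, median 0.31), zygotic embryos (13 tested, median 0.24) and moulting larvae (20 tested, median 0.26) held 0 that passed in edgeR's test; 1, 2, 0 and 1 were higher and 0, 1, 0 and 3 lower unadjusted.

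The change also varied with level. With the tested genes split into 4 equal classes by mean CPM, from the lowest level to the highest, the median log2 changes were 0.04, 0.18, 0.01 and -0.14. Except where stated, the gene lists above are set beside all tested genes and not beside genes of like level. The numbers that rose in these classes were 3, 10, 13 and 11, and those that fell 1, 5, 2 and 0. The median SE was 0.50 in the lowest class and 0.154 in the highest, so a rise of a given size was easier to detect at high levels. The most abundant gene, vit-6, which encodes a yolk protein, had 17748 and 16460 CPM with cadmium, against 23092 and 19504 CPM without. The translation factor gene eef-1A.1 had 10442 and 10593 CPM with cadmium, against 12215 and 13553 CPM without. Neither passed, nor did any other of the 10 most abundant genes, whose log2 changes ran from -1.13 (rrn-3.1, a ribosomal RNA gene of the kind that depletion targets) to 0.02.

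The genes with the widest gaps between cultures of 1 group were of other kinds. With cadmium, catp-2 had 6.28 and 0.269 CPM, C02E7.10 had 4.88 and 0.403 CPM, and col-176 had 43.2 and 7.48 CPM in cultures 1 and 2. T22F3.11 and col-88 completed the 5, at 4.61 and 0.716 CPM and at 1.33 and 7.03 CPM. Without cadmium, the sperm genes msp-142 (0.962 and 8.68 CPM), msp-64 (2.42 and 12.9 CPM) and msp-33 (2.25 and 12 CPM) were higher in culture 2. So was the mitochondrial gene WBGene00010961 (2.00 and 13.6 CPM), while nhx-6 was lower there (5.38 and 0.711 CPM). None of these 10 passed for cadmium.

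The 5 genes just outside the threshold are given with no test. PDB1.1 had 27.4 and 28.8 CPM with cadmium, against 15.5 and 13.4 CPM without, and ugt-62 had 228 and 231 CPM with cadmium, against 144 and 137 CPM without. Y37H2A.14 had 26.6 and 16.7 CPM with cadmium, against 7.34 and 8.96 CPM without. The pseudogene WBGene00019169 had 9 and 4 reads with cadmium, against 28 and 31 without, and Y106G6G.4 had 39 and 31 reads with cadmium, against 86 and 102 without. Just inside it were asp-17 and C29F7.1, given above. In all 5 the groups did not overlap.

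The same exposure of the hizr-1 mutant called 5 genes (0.0316% of those tested), of which gst-38 was the 1 shared with the 45 of the wild type. There gst-38 averaged 24.7 ± 8.46 CPM with cadmium and 6.49 ± 0.601 CPM without (SD, n = 2 each), a log2 change of 1.93 ± 0.260 (adjusted p = 0.0454). Its mutant minus wild type difference of -1.64 ± 0.365 did not pass (adjusted p = 0.406). The 37 genes had a median change of 0.04 in the mutant, with 20 of 37 above 0, where 50.4% of all tested genes were. Summed over the 37, the mutant level was 1144 and 1044 CPM with cadmium, against 1051 and 1007 CPM without.

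The test of the mutant minus wild type difference passed for 18 genes (0.114% of those tested), among them 15 of the 37 that rose and 1 of the 8 that fell. The wild-type libraries that chose the 37 and the 8 also enter this difference, so their share among the 18 is no separate support. For mtl-1 the mutant averaged 3.98 ± 0.374 CPM with cadmium and 4.01 ± 0.412 CPM without (SD, n = 2 each), and the difference was -5.71 ± 0.256 (adjusted p = 3.92e-07). Genes that did not pass this test are not shown to respond alike. T08G5.1, for example, differed by -4.89 ± 1.07 (adjusted p = 0.338) on very few mutant reads. For fat-7 the mutant averaged 27.7 ± 4.46 CPM with cadmium and 57.7 ± 1.25 CPM without (SD, n = 2 each), a change of -1.06 ± 0.167 that missed the threshold (adjusted p = 0.084). Of the 8 genes that fell, 7 were below 0 in the mutant, where 49.6% of all tested genes were. The median of the 8 there was -0.31.

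**Figure D5:**
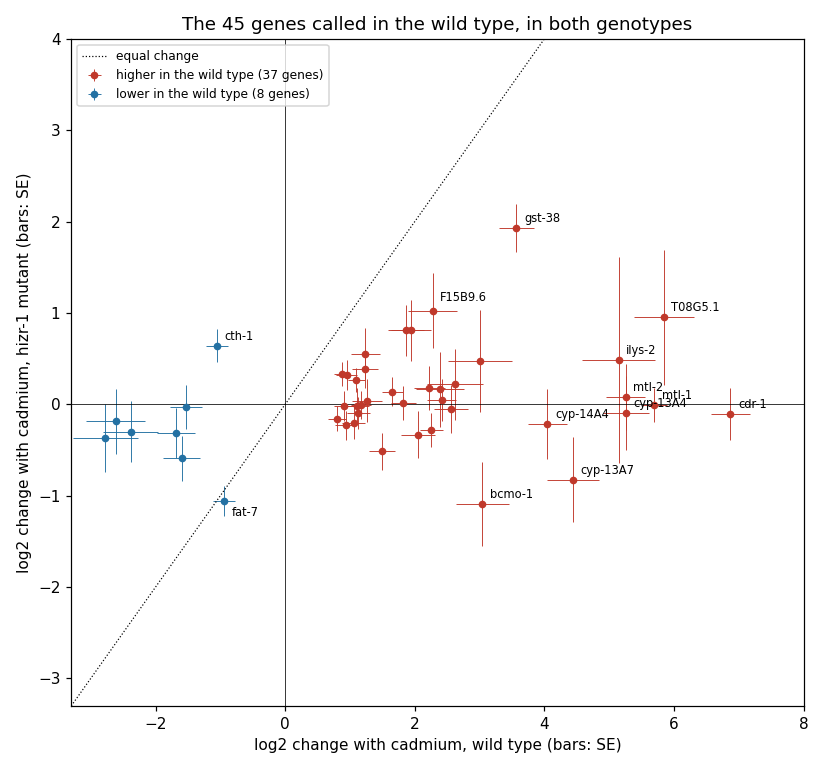
Log2 change with cadmium in the hizr-1 mutant (y axis) against that in the wild type (x axis) for the 45 genes called in the wild type; bars are SE, red genes rose and blue genes fell in the wild type, and the dotted line marks equal change. The x values chose the genes; on the y axis gst-38 is highest at 1.93, mtl-1, mtl-2 and cdr-1 lie near 0, and fat-7 lies on the dotted line.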

How the data were processed

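RNA from whole animals was sequenced after ribosomal RNA depletion. The submitters' processing notes name build WBcel235 with STAR 2.0.4b, featureCounts 1.45 and Subread. The annotation release, strand setting and treatment of reads with several matches are not given in the sources used here. The deposited count column holds whole reads per gene, per the file headers. The deposited CPM and RPKM columns are the authors' depth-scaled and depth-and-length-scaled counts, per the file headers; recomputing them from the counts matched for all 46726 genes within 1e-06. Tests used counts alone.

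Genes passed filterByExpr by group (minimum count 10, total 15), and all 8 libraries entered 1 edgeR quasi-likelihood fit (edgeR 4.0.16, R 4.3.3, TMM, robust) with 4 group means. Tests are 2-sided, with Benjamini-Hochberg adjustment over all tested genes at 0.05. Printed CPM are TMM-scaled, and per-kilobase values divide these by exon length. SEs come from the fold change and the F statistic. The fit and the alternatives DESeq2 1.42.0 and limma-voom (limma 3.58.1) were tested on simulated data. With 2 cultures a group, no exact permutation test can reach 0.05.

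Symbols came from a WBcel235 annotation, which held 46364 of the identifiers (61.72% at the same coordinates); printed coordinates are the files'. The copies numr-1 and numr-2 are not evaluated. The mitochondrial genome list was not used, since its symbols did not match. A count of 3, the floor for an unseen gene, was 0.101 to 0.170 CPM, which covers counting error only, because the labels name no molecular identifiers and reads are then not independent molecules.

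The comparison and all gene lists were chosen with earlier results of these data known. Named genes are all that passed in the wild type (values per library for the 15 largest rises and every fall; for other rises where their family is described), the 5 just outside, the metal-response list, up to 3 members per list by p, the 5 with the widest culture gaps per group and the 10 most abundant. Protein and promoter sequences were not used here.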

Additional observations from a re-analysis of the deposited data

Results flagged for a closer look

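For 17 named genes the cadmium response differed between the hizr-1 mutant and the wild type by edgeR's quasi-likelihood test of the difference itself (adjusted p under 0.05 over all tested genes, 8 libraries). Of these, 15 had risen in the wild type, and their mutant minus wild type differences in log2 change were all negative. The wild-type change chose these genes and also enters the difference, so this shared sign was likely from the choice alone. Among the metal-handling genes they were -6.98 for cdr-1, -5.71 for mtl-1 and -5.18 for its paralogue mtl-2, and the value for cdf-2 was -2.37. Among the P450 genes they were -5.36 for cyp-13A4, -5.26 for cyp-13A7, -4.26 for cyp-14A4 and -2.04 for cyp-33C7. The carotenoid oxygenase genes had -4.13 for bcmo-1 and -2.54 for bcmo-2. For the remaining genes that rose they were -2.61 for T16G1.6, -2.38 for thn-2, -2.01 for ugt-1, -1.81 for cpr-1 and -1.52 for irg-4.

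The gene cth-1, chosen by its fall in the wild type, differed in the other direction, by 1.69. It averaged 27.8 ± 1.89 CPM with cadmium and 17.8 ± 1.65 CPM without in the mutant, and 27.8 ± 1.34 CPM with cadmium and 57.7 ± 10.0 CPM without in the wild type (SD, n = 2 each). The gene ugt-62, just outside the threshold in the wild type, differed by -1.27. It averaged 84.6 ± 4.97 CPM with cadmium and 125 ± 11 CPM without in the mutant, and 229.8 ± 1.90 CPM with cadmium and 140.6 ± 4.87 CPM without in the wild type (SD, n = 2 each). Groups of 2 libraries were too small for a check of single outlying samples.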

How the results depend on the processing

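No called gene changed sign in any of 18 alternatives, and 16 of the 37 genes that rose and 0 of the 8 that fell passed in all of them. The 16 include gst-38, cdf-2, cdr-1, both metallothionein genes, cyp-13A4, cyp-13A7 and cyp-14A4. Some named genes without a call passed in part of the 18, such as gst-5 and vit-1 in 6 each and ssq-3 in 5. Others, such as hizr-1, cdr-4 and vit-3, passed in 0. The numbers that rose and fell were 180 and 396 when low counts were not filtered, 23 and 1 with a stricter filter (minimum count 50), 72 and 143 by DESeq2, 110 and 289 with only the 4 wild-type libraries, and 23 and 1 with the sperm list as covariate. Falls numbered 3 by limma-voom and 2 without robust dispersion. Leaving out 1 library of the 8 gave 17 to 73 that rose, 0 to 350 that fell and 4 to 71 with a mutant minus wild type difference. That last count was 18, and became 90 with no filter and 28 by DESeq2. The cause of these shifts was not tested.

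Replicate numbers do not mark a shared batch in the labels. The main fit therefore used no pairing. Differences between cultures 1 and 2 correlated across genes by 0.442 between the wild-type groups but by -0.542 between the untreated groups of both genotypes. The second value involves a mutant group, so it cannot decide a pairing within the wild type. Chi-square per degree of freedom was 29.9664 between the wild-type cultures numbered 2 and 52.2661 between those numbered 1. It was 29.1772 between the wild-type cultures with cadmium and 55.89 between those without. Whether same-numbered wild-type cultures shared a batch was not tested. With a replicate block 29 genes rose and 5 fell, and with the block in only the 4 wild-type libraries 528 and 609. With 2 cultures a group and mixed stages, changes under the culture spread may have been missed, and no detection limit is given here.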
